A study of Mus musculus with 12 samples.

Results

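The S100 proteins other than calprotectin and the annexins were followed here as 10 genes (S100a1, S100a4, S100a6, S100a10, S100a11, Anxa1, Anxa2, Anxa3, Anxa4 and Anxa5) of 19938 measured in flow-sorted cells of mouse brain and blood. A gene was taken as a member when a probe set of the Affymetrix Mouse Gene 1.0-ST array was annotated with its symbol alone, and the brightest probe set stood for it. The 12 arrays each held 1 sorted population of C57BL/6 mice, 8 from mice bearing GL261 glioma, a transplantable line syngeneic to this strain, and 4 from normal mice. Microglia (MG, CD11b+/CD45low) and macrophages (MP, CD11b+/CD45high) came from tumor and from normal brains. Cells sorted as Gr1+ or Gr1- were taken from brain and blood in tumor-bearing mice only. Blood macrophages called high and low came from tumor-bearing and from normal mice, and the labels do not say what high and low refer to. Implantation at an age of 7 weeks and 2 weeks of tumor growth are given for all 12 samples, the normal ones included. Each population had 1 array and the number of pooled mice is not given, so no difference between 2 arrays could be tested.

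S100 proteins are small EF-hand proteins that change shape when they bind calcium and then grip a partner, and annexins are calcium-dependent proteins that bind phospholipid membranes. Several work together, since S100a10 sits with Anxa2 in a complex at the plasma membrane that also holds the large scaffold Ahnak, and S100a11 binds Anxa1. In myeloid cells the families are known for roles in cell migration, membrane repair, plasmin generation and the resolution of inflammation. S100a8 and S100a9, the subunits of calprotectin, were kept outside the member list and are used only for comparison.

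RefSeq gave a promoter window on GRCm38.p6 for 8 of the 10 genes, and no window was at hand for S100a10 and Anxa3. The 250 bases before the start of 5 genes are shown because the log2 values of these 5 moved closely together over the 12 arrays. They lie at chr3:90603520-90603769 (+ strand), chr3:90612644-90612893 (+ strand), chr3:93520246-93520495 (+ strand), chr19:20390672-20390921 (- strand) and chr9:69453433-69453682 (+ strand), each read in the direction of the gene. Capitals mark matches to 3 motifs, searched on both strands. The TATA box was searched as TATAAA. The AP-1 site was searched as TGANTCA, where N is any base. The GC box was searched as GGGCGG. GAGGAAGT, a PU.1 site, and TTCCNGGAA, a STAT site, were searched too and found in none of these windows.
S100a4: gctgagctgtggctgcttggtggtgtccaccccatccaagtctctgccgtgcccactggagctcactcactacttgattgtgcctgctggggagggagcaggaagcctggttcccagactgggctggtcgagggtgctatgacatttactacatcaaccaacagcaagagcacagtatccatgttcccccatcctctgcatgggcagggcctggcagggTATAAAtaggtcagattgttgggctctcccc
S100a6: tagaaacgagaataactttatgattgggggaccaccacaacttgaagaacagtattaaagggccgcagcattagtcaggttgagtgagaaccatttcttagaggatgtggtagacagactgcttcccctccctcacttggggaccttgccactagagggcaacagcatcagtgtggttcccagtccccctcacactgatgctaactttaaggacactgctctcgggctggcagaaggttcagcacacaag
S100a11: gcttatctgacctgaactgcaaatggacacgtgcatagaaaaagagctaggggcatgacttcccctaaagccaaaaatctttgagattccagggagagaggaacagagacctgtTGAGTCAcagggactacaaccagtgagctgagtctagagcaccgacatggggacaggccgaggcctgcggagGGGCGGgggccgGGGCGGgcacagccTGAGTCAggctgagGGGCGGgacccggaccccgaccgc
Anxa1: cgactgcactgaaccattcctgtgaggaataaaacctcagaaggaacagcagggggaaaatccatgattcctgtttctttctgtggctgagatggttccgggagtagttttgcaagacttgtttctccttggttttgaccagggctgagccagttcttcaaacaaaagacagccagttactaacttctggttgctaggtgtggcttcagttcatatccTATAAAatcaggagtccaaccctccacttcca
Anxa2: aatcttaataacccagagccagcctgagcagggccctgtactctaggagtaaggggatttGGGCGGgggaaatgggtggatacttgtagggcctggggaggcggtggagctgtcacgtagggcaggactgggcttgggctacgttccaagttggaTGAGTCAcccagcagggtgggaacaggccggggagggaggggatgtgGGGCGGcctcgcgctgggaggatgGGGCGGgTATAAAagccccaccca
The S100a11 window held 2 AP-1 matches, 136 and 38 bases before the start, and 3 GC boxes. The Anxa2 window held 1 AP-1 match at 95 bases, 3 GC boxes and a TATA match at 17 bases. Anxa1 and S100a4 had a TATA match only, at 32 and 31 bases before the start, and the S100a6 window held none of the motifs. No matches overlapped. Windows of the same length matched TATAAA in 12.4%, TGANTCA in 6.75%, GGGCGG in 32.7%, GAGGAAGT in 2.44% and TTCCNGGAA in 0.913% of 32851 cases. The windows of S100a1, Anxa4 and Anxa5 had no match.

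Values are log2 signals, and a level counted as background when it did not pass the 95th percentile of 1027 olfactory receptor (Olfr) genes on the same array. This background lay between 8.93 and 9.43 on 11 arrays and at 10.09 on normal blood high, where 11.2% of all genes passed it, against 26.3% to 39.1% elsewhere. Of the 120 member values, 40 were at or under background, 8 of them on normal blood high. Several arrays went against their labels. The tumor blood Gr1- array had 11 of 11 microglia markers above background and a Pearson's r of 0.962 with tumor MP over all genes. Normal blood high and tumor blood low had 8 and 9 of 9 natural killer (NK) cell markers above background, brain Gr1- cells had 4, and the other 9 arrays had 0. Monocyte markers were above background in 10 of 10 on tumor blood high and 9 on normal blood low, and in 4 on tumor blood low and 0 on normal blood high. The blood high and low arrays were therefore described singly and not subtracted from each other as tumor against normal. The limma fits still include them.

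S100a6 (calcyclin) and Anxa2, a membrane and plasminogen-binding annexin, had nearly the same profile. S100a6 was at 8.57 on tumor MG, 6.01 on normal MG, 8.59 on tumor MP and 9.70 on normal MP. It was at 10.44 on brain Gr1+, 8.29 on brain Gr1-, 10.75 on blood Gr1+ and 8.53 on blood Gr1- cells. The blood arrays gave 11.29 for tumor high, 9.02 for normal high, 9.79 for tumor low and 10.79 for normal low. S100a6 was thus over background in normal MP, in both Gr1+ populations and on 3 blood macrophage arrays, and lowest of all in normal MG. Anxa2 was at 9.37 on tumor MG, 7.42 on normal MG, 9.45 on tumor MP and 10.32 on normal MP. Its values were 11.08 on brain Gr1+, 9.34 on brain Gr1-, 11.44 on blood Gr1+ and 9.46 on blood Gr1- cells. Tumor blood high had 11.77, normal blood high 9.66, tumor blood low 10.71 and normal blood low 11.23. Anxa2 passed background on 9 arrays and missed it on tumor MG, normal MG and normal blood high.

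S100a10, the partner of Anxa2 that stays in its binding form without calcium, was above background on 11 arrays, all but normal MG. It was at 10.51 on tumor MG, 8.61 on normal MG, 10.55 on tumor MP and 11.23 on normal MP. Gr1+ and Gr1- cells had 11.98 and 10.12 in the brain, and 11.64 and 10.38 in the blood. It reached 12.86 on tumor blood low and 12.27 on normal blood high, with 11.72 on tumor blood high and 11.58 on normal blood low. Its highest values were on the 2 arrays with 8 or 9 of 9 NK markers above background. These arrays also had the highest B cell marker medians, 12.17 on tumor blood low and 11.89 on normal blood high. Its second lowest value was on brain Gr1- cells, with 4 of 9 NK and 11 of 11 microglia markers. The part of these cells was not tested. Ahnak was likewise highest on tumor blood low, at 13.16, and under background only on normal MG, at 7.40.

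S100a11, a partner of Anxa1, passed background on all 12 arrays. Its values were 11.80 on tumor MG, 9.60 on normal MG, 11.79 on tumor MP and 12.37 on normal MP. Brain Gr1+ and Gr1- cells had 12.23 and 11.34, and blood Gr1+ and Gr1- cells had 13.39 and 11.05. Tumor blood high had 13.87, normal blood high 11.76, tumor blood low 11.99 and normal blood low 13.54. The gene has 2 probe sets, which differed by 0.90 on normal MG and 0.62 on normal blood high and by at most 0.29 on the other arrays. Anxa1, a glucocorticoid-induced protein that acts on formyl peptide receptors, had the sharper on and off pattern. It was at 8.05 on tumor MG, 6.79 on normal MG and 8.45 on tumor MP, all under background, but at 11.92 on normal MP. Gr1+ cells had 9.76 in the brain and 10.68 in the blood, while Gr1- cells were under background at 8.09 and 8.37. Tumor blood high had 12.02, normal blood high 8.92 (under background), tumor blood low 9.43 and normal blood low 10.96. Anxa1 thus passed background on 6 arrays, 2 from brain and 4 from blood.

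S100a4, which binds non-muscle myosin and is known from motile cells, passed background on 5 arrays. These were brain Gr1+ at 10.62, tumor blood high at 10.59, blood Gr1+ at 10.13, normal blood low at 10.13 and normal MP at 9.75. The other 7 ran between 7.03 on normal MG and 8.83 on tumor MP, with 8.61 on brain Gr1- and 8.70 on blood Gr1- cells. S100a1, best known from heart muscle, was highest in the normal brain, at 11.47 on normal MP and 10.15 on normal MG. Neural and glioma markers passed background in 4 of 9 on normal MP, 3 of 9 on normal MG and at most 1 of 9 on any other array. Their part in the S100a1 values was not tested. S100a1 was at 9.40 on tumor MG and 9.21 on tumor MP, at 9.71 on brain Gr1+ and 8.90 on brain Gr1- cells, and at 9.66 and 9.54 on blood Gr1+ and Gr1- cells. S100a1 was under background on tumor MP, on brain Gr1- cells and on the other 4 blood arrays, which had 8.11 to 9.17. On tumor MG it passed background by only 0.03.

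Anxa3 ran opposite to most of the group. It was at 11.29 on tumor MG, 11.58 on normal MG, 11.37 on tumor MP and 10.68 on normal MP. Gr1+ and Gr1- cells had 10.57 and 11.66 in the brain, and 10.17 and 11.29 in the blood. The 4 blood macrophage arrays were under background, between 7.17 on tumor blood low and 8.53 on tumor blood high. Anxa3 passed background on all 6 brain arrays and, in the blood, only on the Gr1 pair. Microglia markers passed it in 5 of 11 on blood Gr1+, 11 on blood Gr1- and at most 2 on the 4 blood macrophage arrays. Whether these markers bear on Anxa3 was not tested. Anxa4 and Anxa5, a phosphatidylserine binder widely used to stain dying cells, were both highest on brain Gr1+ cells, at 11.36 and 11.71. Anxa4 was at 9.97 on tumor MG, 8.41 on normal MG, 9.95 on tumor MP and 9.69 on normal MP, and 7.32 to 9.08 on the 4 blood macrophage arrays. The values on normal MG and on these 4 blood arrays were under background. Brain Gr1- cells had 10.00 Anxa4, and blood Gr1+ and Gr1- cells 10.72 and 9.92. Anxa5 was at 10.76 on tumor MG, 9.51 on normal MG, 10.87 on tumor MP and 11.65 on normal MP, and at 10.88 on brain Gr1-, 11.24 on blood Gr1+ and 10.97 on blood Gr1- cells. It missed background only on normal blood high at 8.65 and tumor blood low at 9.19.

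**Figure D1:**
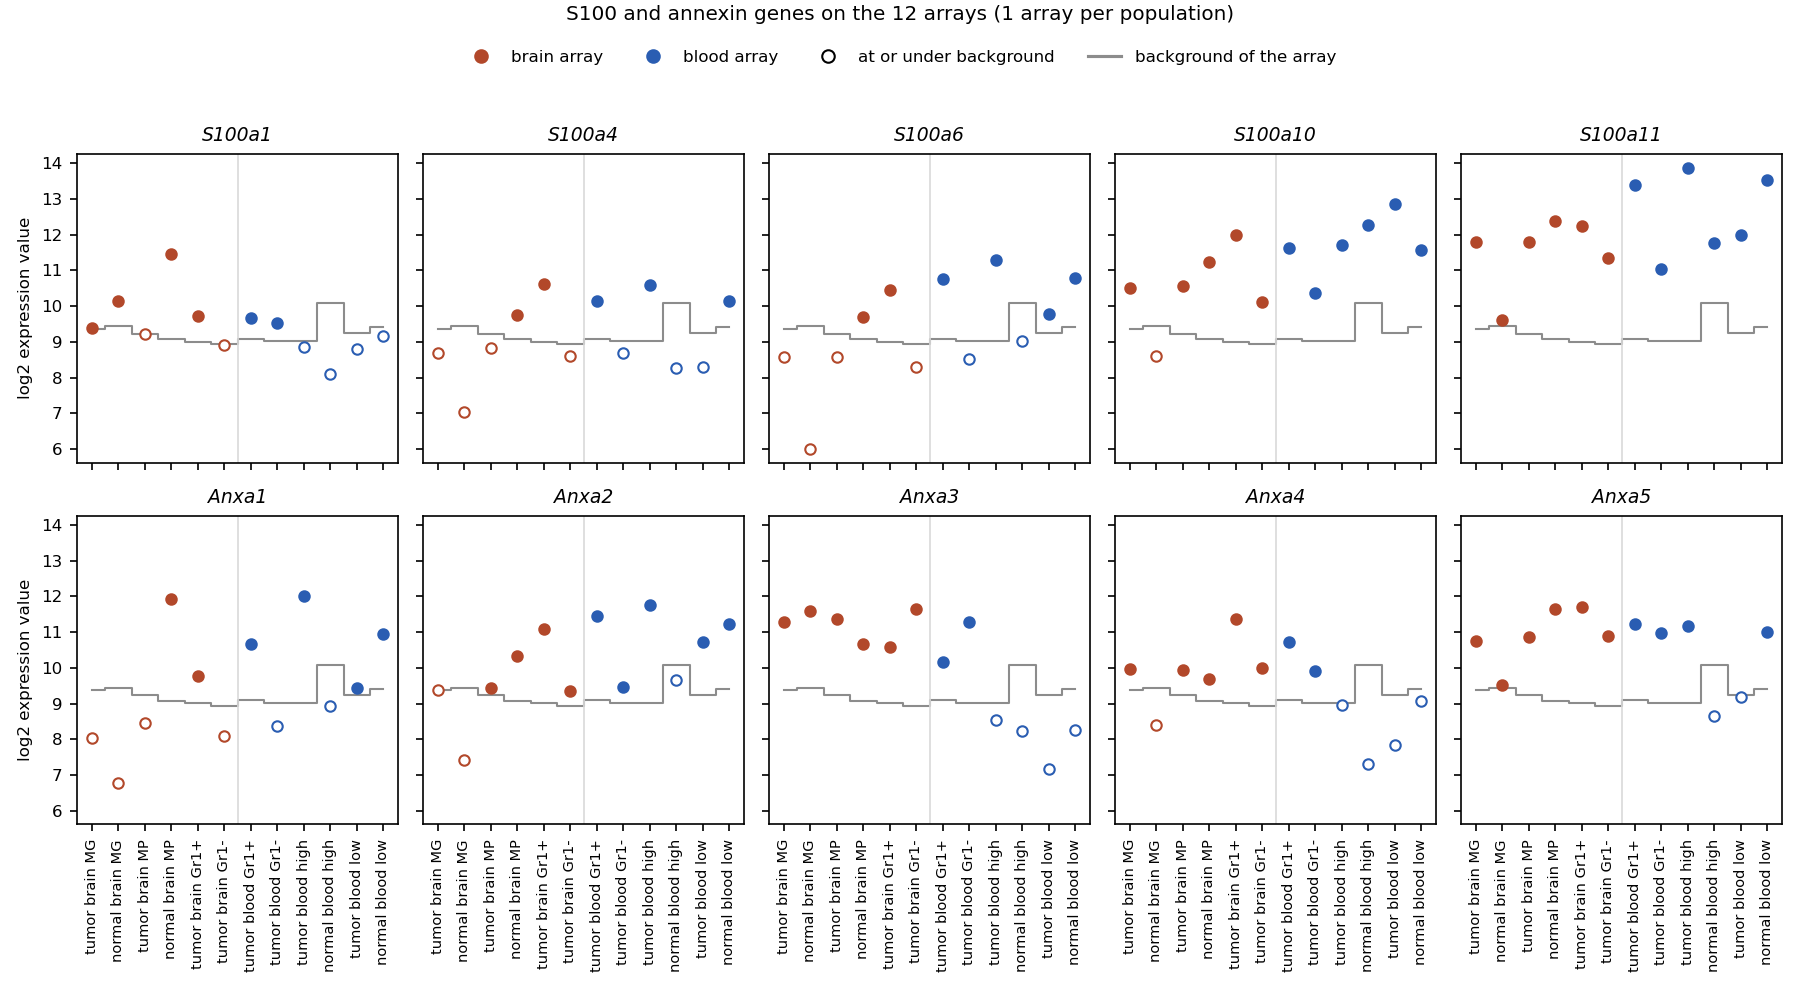
Log2 expression value (vertical axis) of the 10 genes on the 12 arrays (horizontal axis, 1 point per array), with brain arrays in red, blood arrays in blue, open points at or under background and a grey line for each array's background. S100a4, S100a6, S100a10, S100a11, Anxa1 and Anxa2 have their lowest values in normal MG. Anxa3, Anxa5 and S100a11 are above background on all 6 brain arrays.

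Tumor and normal MG were compared to see what the glioma setting goes with in resident cells. S100a11 was higher in tumor MG by 2.19 log2 units (4.57-fold) and Anxa5 by 1.25, but their normal MG values passed background by only 0.17 and 0.08. The dimmer S100a11 probe set, at 8.70 on normal MG, was under background. Counted from the background of the normal array, S100a10 was higher by at least 1.08 and Anxa4 by at least 0.54. Anxa3 differed by -0.29 and S100a1 by -0.75. By measured values, tumor MG had 8 of the 10 genes 2-fold or more above normal MG, against 2.44% of all genes, and 0 were 2-fold lower, against 3.61%. S100a4, S100a6, Anxa1 and Anxa2, 4 of those 8, were at or under background on both arrays and are given no fold. With values under background raised to it, 3 genes (S100a10, S100a11 and Anxa5) were 2-fold apart, against 1.49% of all genes. The median was 1.60 over the 10 genes, 1.40 over the 6 above background on either array and -0.09 over all genes. The SD of log2 differences over Olfr genes was 0.41. Monocyte markers above background numbered 6 of 10 in tumor MG and 0 in normal MG, with medians of 9.62 and 7.24, and their part in the result was not tested. In sorted bulk samples fewer cells of a type and less RNA per cell cannot be told apart.

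Tumor MP had lower Anxa1 and S100a1 than normal MP. Anxa1 was lower by at least 2.69 log2 units against background and S100a1 by at least 2.24. S100a6 was at 8.59 in tumor MP, under background, against 9.70 in normal MP, a measured -1.11 that shrank to at least 0.47 lower. These were the 3 genes at least 2-fold lower, against 3.58% of all genes, and 0 were 2-fold higher, against 1.65%. From background S100a4 was lower by at least 0.51, with a measured -0.91. The rest ran between -0.87 for Anxa2 and 0.69 for Anxa3, with -0.58 for S100a11 and -0.67 for S100a10. The median was -0.82, against 0.12 for all genes and an Olfr SD of 0.39. At 1.5-fold, 8 genes were apart, 7 of them lower, against 17.2% of all genes apart. Neutrophil markers passed background in 2 of 12 on tumor MP and 10 of 12 on normal MP, with medians of 8.07 and 11.17. Border macrophage markers passed it in 1 of 5 on tumor MP and 5 of 5 on normal MP, with medians of 7.61 and 11.54, and monocyte markers in 6 and 9 of 10. Neural and glioma markers passed it in 1 of 9 on tumor MP and 4 of 9 on normal MP. The part of these cells in the result was not tested.

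Normal MP and normal MG stood further apart than tumor MP and tumor MG, a contrast between 2 comparisons that was not tested. In normal brains Anxa1 was higher in MP by at least 2.48 log2 units, S100a11 by 2.77, Anxa5 by 2.13, S100a10 by at least 1.79 and S100a1 by 1.32. S100a11 and Anxa5 passed background in normal MG by only 0.17 and 0.08. S100a4, S100a6, Anxa2 and Anxa4 were under background in normal MG, and their bounds were at least 0.31, 0.26, 0.88 and 0.25. Measured values put 9 of 10 genes at least 2-fold higher in MP, against 4.35% of all genes, and 0 lower, against 3.11%, and raising values to background left 5, against 2.34% of all genes apart. Anxa3 alone was lower in MP, by 0.90. The median was 2.67, against -0.22 for all genes, a value that became -0.10 when arrays were centred. In tumor brains the 10 measured differences between MP and MG ran from -0.19 to 0.40 with a median of 0.06 and an Olfr SD of 0.35. By these values 0 genes were 2-fold higher, against 0.186% of all genes, and 0 lower, against 0.155%. Both arrays carried microglia markers, 11 of 11 on tumor MP and 10 on tumor MG with medians of 11.78 and 11.48, and both had 6 of 10 monocyte markers. Over all genes the tumor MP and tumor MG arrays correlated at 0.975 (Pearson), and these markers did not set them apart. Normal MP also carried neutrophil markers (10 of 12, against 1 in normal MG) and border macrophage markers (5 of 5, against 1). The comparisons of MG and MP share arrays, so their values are not independent of each other.

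Gr1+ cells had more of most of the genes than Gr1- cells in tumor brains. S100a10 was higher by 1.85 log2 units (3.61-fold), Anxa2 by 1.74 and Anxa4 by 1.36, and from background S100a4 was higher by at least 1.68, S100a6 by at least 1.51 and Anxa1 by at least 0.83. Anxa3 was lower in Gr1+ cells by 1.08. By measured values 6 genes were at least 2-fold higher, against 2.88% of all genes, and 1 was lower, against 5.12%. With values raised to background, which takes out Anxa1, 5 were higher and 1 was lower, against 3.16% of all genes apart. S100a11 differed by 0.89, Anxa5 by 0.82 and, from background, S100a1 by at least 0.78. The median was 1.51, against 0.04 for all genes and an Olfr SD of 0.35. Monocyte markers passed background in 9 of 10 on brain Gr1+ and 5 on brain Gr1- cells, microglia markers in 4 and 11 of 11, and NK markers in 0 and 4 of 9. Their part in the result was not tested.

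In the blood 6 genes were again at least 2-fold higher in Gr1+ cells, against 3.2% of all genes, and 1 was lower, against 4.31%. S100a11 was higher by 2.33 log2 units (5.04-fold), Anxa2 by 1.98 and S100a10 by 1.26. From background S100a6 was higher by at least 1.72, Anxa1 by at least 1.65 and S100a4 by at least 1.10. Anxa3 was lower by 1.12, and Anxa4, Anxa5 and S100a1 differed by 0.80, 0.26 and 0.12. The median was 1.34, against -0.07 for all genes, with an Olfr SD of 0.38. The comparison rests on the blood Gr1- array, which carried microglia markers, and no blood Gr1- array without them was at hand. Blood Gr1+ cells also had some, with 5 of 11 above background against 11 on blood Gr1- cells, and medians of 8.52 and 11.45. Neutrophil markers passed background in 7 of 12 on blood Gr1+ and 1 on blood Gr1- cells, with medians of 11.02 and 7.38, monocyte markers in 9 and 6 of 10 and B cell markers in 1 and 5 of 5. Their part was not tested.

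Brain and blood Gr1+ cells were compared for the same sort in 2 places. Of the 10 genes only S100a11 was at least 2-fold apart, lower in brain by 1.16, against 2.97% of all genes lower, and 0 were higher, against 1.02%. Anxa1 differed by -0.92 and Anxa4 by 0.63, and the other 7 lay between -0.37 and 0.49. The median was 0.19, against 0.01 for all genes, and the Olfr SD 0.43. Calprotectin differed more, since S100a8 and S100a9 were under background on brain Gr1+ cells, at 8.30 and 8.38, against 12.92 and 13.03 on blood Gr1+ cells. With the brain values raised to background, the differences were -3.90 for S100a8 and -4.02 for S100a9. Neutrophil markers passed background in 2 of 12 on brain and 7 on blood Gr1+ cells, with medians of 7.84 and 11.02, and monocyte markers in 9 of 10 on each. Microglia markers passed it in 4 of 11 on brain and 5 on blood Gr1+ cells, and endothelial markers in 4 and 2 of 6. The part of all these cells in the values was not tested.

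**Figure D2:**
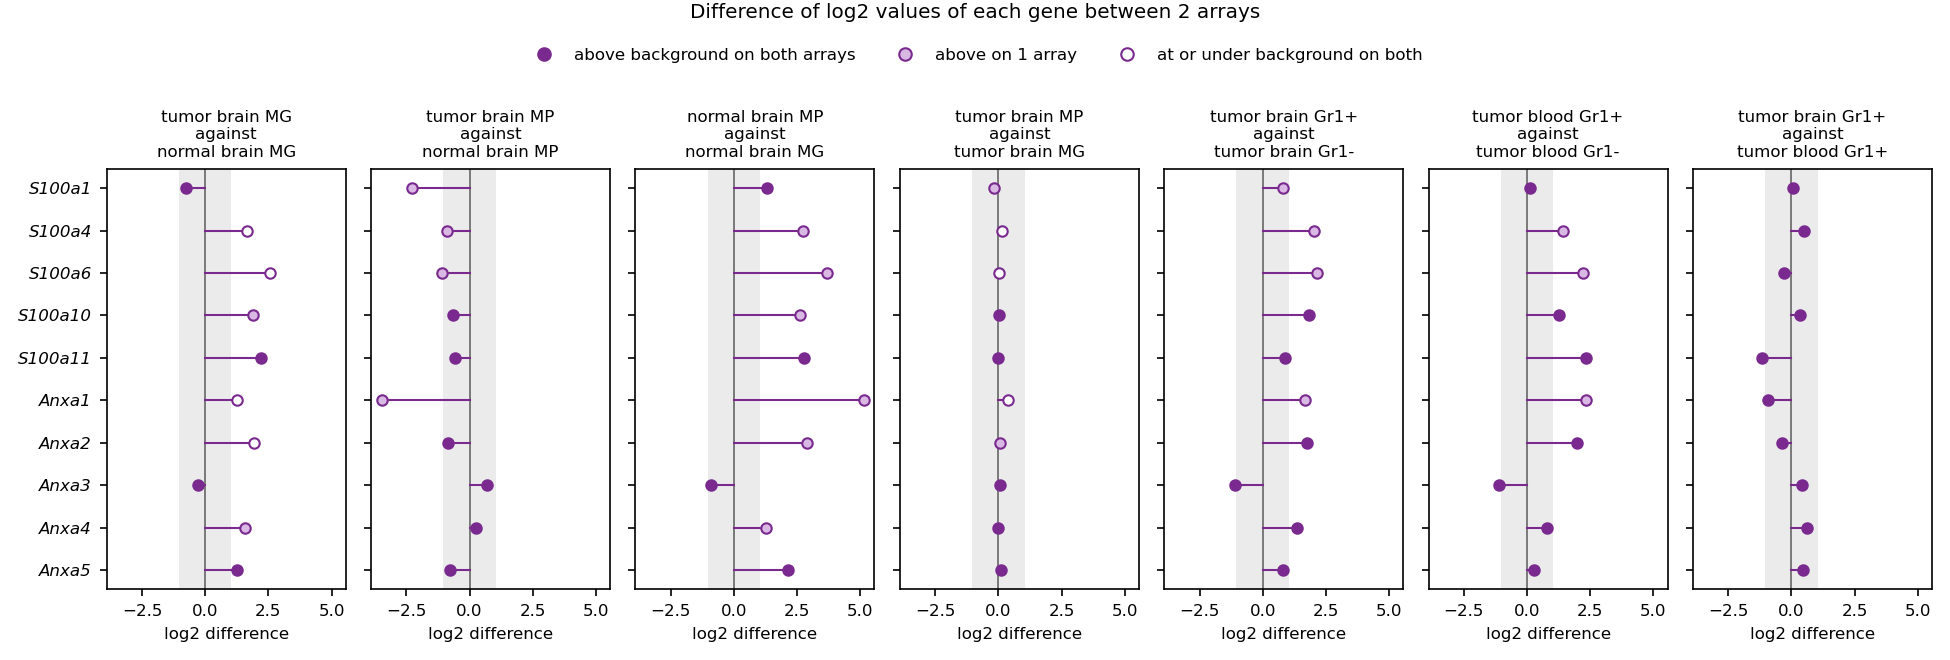
Difference of log2 values (horizontal axis, first array minus second) of the 10 genes (vertical axis) in 7 comparisons of 2 arrays, with the grey band within 2-fold, full points above background on both arrays, pale points on 1 and open points on neither. Tumor MP against tumor MG lies between -0.19 and 0.40, and Anxa3 is the gene that is lower in both Gr1+ comparisons.

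Across all arrays, brain against blood and tumor-bearing against normal mice were tested together in limma, where the error is the spread between different sorted populations. None of the 10 genes was called at an adjusted p under 0.05 in either contrast. Over all genes 0% were called higher and 0.015% lower in brain, and 0.00502% higher and 0% lower in tumor-bearing mice. At an unadjusted p under 0.05 there were 4 genes for tissue, with Anxa3 higher in brain, against 7.91% of all genes higher, and S100a6, S100a10 and Anxa2 lower, against 3.69%. For tumor 1 gene passed, Anxa4, higher in tumor-bearing mice, against 5.17% of all genes, and 0 lower, against 15.8%. Anxa3 averaged 11.19 ± 0.46 on brain and 8.94 ± 1.5 on blood arrays (SD, n = 6 each). Its lowest, median and highest values were 10.57, 11.33 and 11.66 in brain and 7.17, 8.39 and 11.29 in blood, so the groups overlapped. The difference was 2.25 ± 0.54 (SE) with a 95% interval from 1.09 to 3.41 and an adjusted p of 0.185 in limma. Without the blood Gr1- array it was 2.71 with an adjusted p of 0.00914, and over the alternatives the adjusted p ran from 0.000527 to 0.471. S100a10 differed by -1.24 ± 0.50 (adjusted p = 0.34), Anxa2 by -1.22 ± 0.53 (0.386 adjusted p) and S100a6 by -1.43 ± 0.64 (0.404 adjusted p) in limma. Anxa4 was higher in tumor-bearing mice by 1.22 with a limma adjusted p of 0.209. Medians over the 10 genes were -0.76 for tissue and 0.54 for tumor, against -0.07 and -0.22 for all genes.

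**Figure D3:**
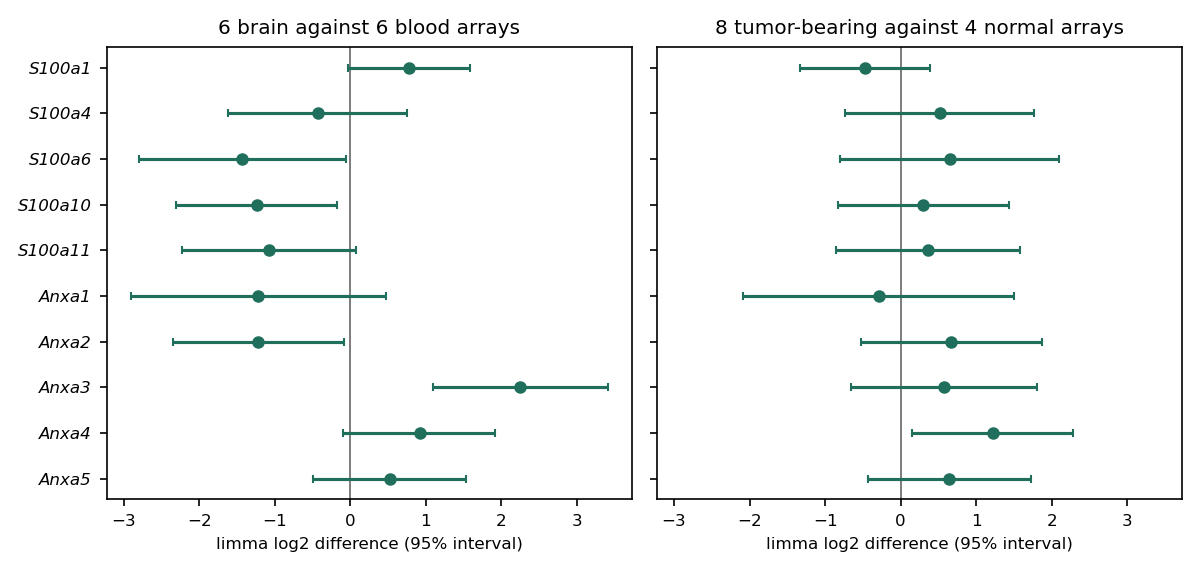
Limma log2 difference (horizontal axis, points, with 95% intervals as bars) of the 10 genes (vertical axis) for 6 brain against 6 blood arrays on the left and 8 tumor-bearing against 4 normal arrays on the right. Anxa3 has the largest difference among the 10, 2.25 for brain against blood, and no adjusted p was under 0.05.

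Over the 12 arrays, S100a6 and Anxa2 had a Pearson's r of 1.00 to 2 decimals, S100a6 and S100a11 0.96, S100a11 and Anxa2 0.94, and S100a4 and S100a6 0.90. S100a10 and Anxa2, the partners in 1 complex, had 0.80. Anxa3 ran against S100a10 at -0.81 and against Anxa2 at -0.59, but with Anxa4 at 0.61, while Anxa4 and Anxa5 had 0.87. These r describe 12 arrays that share tissues, sorts and the normal blood high array with its high background, and values under background enter them. Among 8232 genes above background on at least 3 arrays, the nearest to S100a6 were Cd44 (r = 0.985), the hyaluronan receptor, Cxcr4 (0.979), a chemokine receptor, and Diaph1 (0.971), a formin. Diaph1 (0.983), Cd44 (0.982) and Kctd10 (0.978) came nearest to Anxa2, and Cd44 (0.963), Pstpip1 (0.959) and Tmem134 (0.950) to S100a11. S100a10 was nearest to Tmsb10 (0.949), Ahnak (0.938) and Rps14 (0.937), and S100a4 to Vav3 (0.984), Emb (0.979) and Gda (0.971). Anxa1 was nearest to Rgs18 (0.960), Plekhg3 (0.958) and Aldh2 (0.948), and S100a1 to Norad (0.945), Plekhb2 (0.931) and Ankrd40 (0.923). Anxa3 went with Ctsl (0.989), a lysosomal protease, Mertk (0.987), a receptor for the uptake of dying cells, and Gpr84 (0.982). Anxa4 went with Znfx1 (0.985), Nampt (0.982) and Tmem106a (0.981), and Anxa5 with Milr1 (0.985), Glrx (0.975) and Ms4a4a (0.964).

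**Figure D4:**
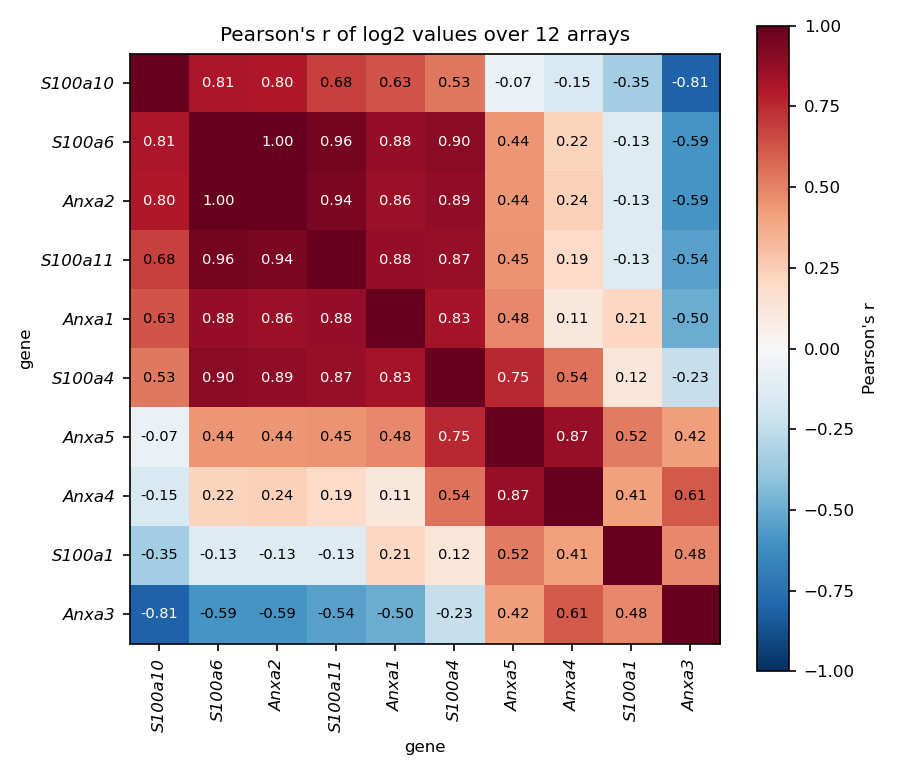
Pearson's r of log2 values over 12 arrays between each pair of the 10 genes (both axes), with red for positive and blue for negative r. S100a6 and Anxa2 reach 1.00 and Anxa3 and S100a10 reach -0.81.

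Of the rest of the families, 6 of 11 other S100 genes and 3 of 7 other annexins passed background on any array. S100a13 and S100a7a passed it on all 12 arrays, with 9.95 to 10.71 and 9.27 to 10.29, while S100a16 and S100b passed it on normal MP alone, at 9.13 and 9.62. The highest values of S100a13 and S100a7a were on normal blood high, the array with the highest background, 10.09. Anxa6 was above background on all arrays and highest on tumor blood low at 12.28, and Anxa11 was above it on 8 and highest on tumor blood high at 11.09. Anxa7 was above it on 5 and highest on brain Gr1+ cells at 9.74. Of 13 listed partners and receptors 11 were measured and 7 passed background. Cacybp passed it on 11 arrays, with a highest value of 10.69 on brain Gr1+ cells. Ager passed it on 10, with a highest value of 10.14 on normal blood high. Ahnak followed the pattern of S100a10, higher in tumor than in normal MG by at least 1.30 log2 units, in normal MP than in normal MG by at least 2.74 and in brain Gr1+ than in brain Gr1- cells by 2.30. It was lower in tumor than in normal MP by 1.33. Myh9, the myosin bound by S100a4, lay between 10.78 on normal MG and 12.80 on tumor blood high. Limma called 0 genes of the 3 lists in either contrast. For tissue an unadjusted p under 0.05 was passed by 0 other S100 genes, by Anxa6 and Anxa11, lower in brain, and by Ahnak, also lower, and Pla2g4a and Tlr4, higher in brain. For tumor this p was passed by S100a3, S100a5, S100a16, S100b and Anxa8, all lower in tumor-bearing mice, where 15.8% of all genes were lower. Myh9 and Plgrkt also passed it, both higher. S100a3, S100a5 and Anxa8 were under background on all 12 arrays, so their differences lie within background signal. S100a16 and S100b passed background on 1 array and Plgrkt on 2.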

How the data were processed

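RNA of 12 flow-sorted populations was amplified in 2 cycles and hybridised to 12 Affymetrix Mouse Gene 1.0-ST arrays. The authors corrected, normalized and summarized the intensities in Affymetrix Expression Console, and the submitters' processing notes name RMA without version. Their deposited log2 values were used unchanged. Genome build and annotation release were not given in the sources used here. Of 28944 probe sets, only the 21789 annotated with 1 symbol were kept, which dropped 1621 with several and 5534 unnamed ones. The brightest probe set by mean stood for each of 19938 genes. In 7 comparisons 1 array was subtracted from another, with a call at 2-fold and no p-value. Where the dimmer array was at or under background, its value was raised to it and the difference is a lower bound ("at least"). limma 3.58.1 in R 4.3.3 fitted tissue and disease state over all genes, with Benjamini-Hochberg adjustment. Other steps ran in Python 3.11.15 (pandas 2.3.3, numpy 2.4.6). The fit was tested on simulated data. Members, lists and named genes were chosen with earlier results of these data known. Named were all members, list genes above background or with an unadjusted limma p under 0.05, and the 3 nearest genes by r outside the members. Alternatives were scaling, floor, fold threshold, probe set mean, array weights, a filter on dim genes and leaving out arrays. An item of the study is not reported here.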

Additional observations from a re-analysis of the deposited data

Results flagged for a closer look

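S100a11 on the normal MG array was far from the other brain arrays, at 9.60 against 11.34 for the next lowest, a gap of 0.627 of the whole range against a critical value of 0.625. Of 20 such groups tested this was the only one. Chance is expected to give about 1 in 20 when all values of a group share 1 distribution. Each brain array held a different sorted population, so the gap cannot tell an outlying array from a difference between populations. S100a6 and Anxa1 had measured log2 values with opposite signs in tumor against normal MG and MP, 2.56 and -1.11 for S100a6 and 1.26 and -3.47 for Anxa1. Both genes were under background on both MG arrays and on tumor MP, so the MG values give no direction and the MP values are known only as bounds. The difference between MG and MP was not tested.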

How the results depend on the processing

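No analysis paired by mouse was possible because the labels do not link arrays to mice. Populations can be matched, and a limma fit with population as a block over the 8 arrays of the 4 populations sorted from both kinds of mice, chosen after seeing the data, called 0 of the 10 genes and 0 of all genes for tumor against normal. It gave 0.56 for Anxa4 and turned Anxa3 to -0.09, with 3 residual degrees of freedom. Blood high and blood low were 2 of the 4 populations, and their tumor and normal arrays carried unlike cell markers. The values of this fit therefore rest in part on unlike pairs. Median centring and quantile normalization left the number of the 10 genes at least 2-fold apart within 1.5 times in all 7 comparisons. Raising values to background gave 3 genes apart in tumor against normal MG (8 as deposited) and 5 in normal MP against normal MG (9 as deposited). At 1.5-fold there were 8 in tumor against normal MP (3 at 2-fold) and 3 in brain against blood Gr1+ cells (1 at 2-fold), where 14% of all genes were apart. With the same floor, S100a4, S100a6, Anxa1 and Anxa2 each turned to -0.06 in MG, which is the difference of the 2 background levels.

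In limma, 3 genes were called in brain against blood with the floor, namely Anxa3 (1.32, adjusted p = 0.000527), S100a10 (-1.10, adjusted p = 0.0168) and Anxa2 (-0.95, adjusted p = 0.0393), and 1 in tumor-bearing against normal, S100a1 (-0.94, adjusted p = 0.0181). Of all 19938 genes the floor gave 421 calls for tissue and 194 for tumor, against 3 and 1 as deposited. S100a4 and S100a6 turned to -0.21 and -0.15 there. Leaving out 1 array each gave 0 to 1 genes called for tissue, 1 being Anxa3 without blood Gr1-, and 0 to 0 for tumor. Without that array and normal blood high there was 1, Anxa3 (2.68, adjusted p = 0.0334). Array weights turned Anxa5 to -0.13 in brain against blood. Leaving out 1 array each, the tumor difference ran from -0.06 to 0.95 for S100a4, -0.16 to 1.23 for S100a6, -0.33 to 0.65 for S100a10 and -0.27 to 0.80 for S100a11, lowest without normal MG in each. It ran from -0.93 to 0.04 for S100a1 and -1.13 to 0.79 for Anxa1, highest without normal MP, and none was called. The causes were not tested. The 90th percentile put 32 of 120 values at or under background (40 at the 95th). The number of arrays, 1 per population, limits precision.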

Other observations

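Among partners and receptors, Pla2g4a, a phospholipase that annexins can inhibit, and Tlr4, a receptor for S100 proteins in some settings, had brain values in a narrow band. Pla2g4a averaged 10.39 ± 0.32 on brain and 8.78 ± 1.32 on blood arrays (SD, n = 6 each), a difference of 1.61 with a limma adjusted p of 0.213. Tlr4 averaged 9.94 ± 0.27 and 8.57 ± 1.26 on brain and blood arrays (SD, n = 6 each), a difference of 1.37 with a limma adjusted p of 0.235. Neither was called. Both were under background on normal blood high, tumor blood low and normal blood low. The contrasts of tissue pool different sorted populations, 4 of the 6 blood arrays being the high and low populations.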
